A study of Rattus norvegicus with 32 samples.

Results

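The comparison described here is cannabidiol (CBD) against vehicle in rats that were conditioned with a neutral cue, read out by RNA sequencing of the nucleus accumbens shell. Its members are the 8 libraries labelled as CBD with no anxiety cue and the 8 labelled as vehicle with no anxiety cue, 16 of the 32 libraries in the series. The other 16 libraries, 8 CBD and 8 vehicle, came from rats conditioned with a lemon odor, here called the anxiety cue. All rats are labelled wild type. All had electric shocks paired with their cue, CBD or vehicle was given ahead of anxiety testing, and brains were taken after the last shock, so that both neutral-cue groups carry the shock and the testing and differ by drug. The labels give no strain, age, sex, dose, vehicle or batch, and do not say that each library is a separate animal, so p-values measure the spread between these libraries. The Y-linked gene Kdm5d was present at 31.2 to 43.9 CPM, the count scaled to a common library size and corrected for library composition, in all 16 libraries.

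The accumbens shell is the part of the ventral striatum that joins motivational and emotional input. Most of its neurons are GABAergic medium spiny neurons, which carry dopamine D1 or D2 receptors, and it lies beside the septum, the ventral pallidum and the basal forebrain cholinergic cells. CBD is a plant cannabinoid with weak affinity for the main cannabinoid receptor. It has been reported to slow the breakdown of the endocannabinoid anandamide and to act on serotonin 1A receptors, TRPV1 channels and the nuclear receptor PPAR gamma.

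Depth was 13575136 to 20338611 counts in the CBD libraries and 11651537 to 22044632 counts in the vehicle libraries. Among these 16, several libraries stood apart from the rest in genes of other cell types or tissues, and the libraries are numbered 1 to 8 within each group here only to name them. Vehicle libraries 4, 7 and 8 held 37.7, 36.1 and 39.8 CPM of Slc17a6, a glutamate transporter of septal and diencephalic neurons, against at most 18.0 CPM in the other 13. The same 3 libraries had the lowest Drd1, the dopamine D1 receptor of medium spiny neurons, at 56.6, 145.7 and 107.4 CPM, against at least 255.1 CPM elsewhere. CBD library 6 held 937.7 CPM of Slc17a7, the glutamate transporter of cortical neurons, against at most 61.9 CPM in any other library. Alb, the liver's serum albumin, was at 90.0, 49.3, 227.0 and 97.3 CPM in CBD libraries 1 to 4 and at most 9.66 CPM elsewhere. Plin1, the lipid droplet coat protein of fat cells, was at 16.7 to 42.1 CPM in vehicle libraries 1 to 5 and at most 1.88 CPM elsewhere. CBD libraries 1 to 4 and vehicle libraries 1 to 5 carry sample titles numbered 9 to 19, and the remaining 7 libraries carry titles 34 to 44. Vehicle library 8 also held 1688 CPM of the ribosomal RNA gene Rn45s, against at most 253.4 CPM elsewhere. The liver and fat signals split the drug groups within the first run of titles. In tissue RNA of this kind, fewer cells of a type and less RNA per cell cannot be told apart.

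**Figure D1:**
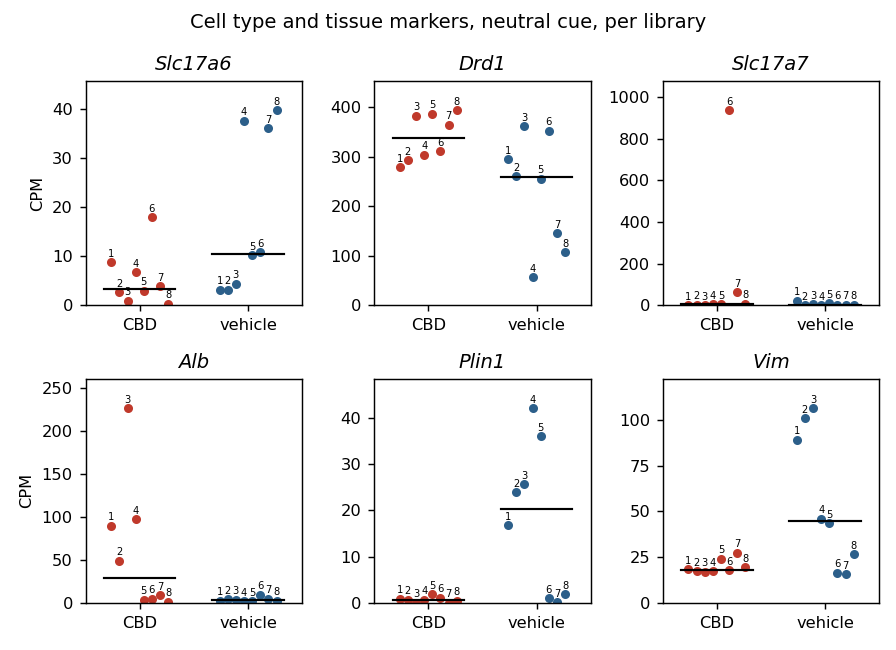
CPM of 6 marker genes (vertical axes) in each neutral-cue library, CBD on the left and vehicle on the right of each panel; points carry the library number and the black line is the group median. Slc17a6 was at 36.1 to 39.8 CPM in vehicle libraries 4, 7 and 8, Alb at 49.3 to 227.0 CPM in CBD libraries 1 to 4 and Plin1 at 16.7 to 42.1 CPM in vehicle libraries 1 to 5.

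No gene passed an adjusted p of 0.05 between CBD and vehicle with the neutral cue, by edgeR's quasi-likelihood test over 17059 genes with Benjamini-Hochberg adjustment. The smallest adjusted p was 0.0697. At an unadjusted p under 0.05 there were 3852 genes (22.6% of those tested), of which 1798 (10.5%) were higher and 2054 (12%) lower with CBD. The median log2 fold change over all tested genes was 0.00548, and 50.9% of genes lay above 0. With DESeq2's Wald test 349 genes passed the adjusted threshold, 188 higher and 161 lower.

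The genes called higher by DESeq2 had their large differences among titles 9 to 19, the run that holds the libraries with liver genes. Their median log2 fold change was 2.3 among titles 9 to 19 and 0.28 among titles 34 to 44, where 124 of the 187 that could be tested lay above 0 and 77 had an unadjusted p under 0.05. For the genes called lower the median was -0.80 among titles 9 to 19 and -0.56 among titles 34 to 44, where 105 of the 161 had an unadjusted p under 0.05. The 77 were all on the higher side and the 105 all on the lower side. Over all 17609 genes tested among titles 34 to 44, 1961 were higher and 2130 lower at that unadjusted p. The vehicle libraries of titles 34 to 44 are library 6 and the high-Slc17a6 libraries 7 and 8. The third high-Slc17a6 library, vehicle library 4, lies among titles 9 to 19. These runs are parts of the libraries that made the calls, so the values describe where the calls came from.

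Counts also turned on which libraries were kept. Without vehicle libraries 4, 7 and 8 the unadjusted count was 1699 genes and none passed the adjusted threshold. Without vehicle libraries 1 to 5, those with fat genes, 1295 genes passed the adjusted threshold. The vehicle group then held library 6 and the high-Slc17a6 libraries 7 and 8. With the mean levels of septal, cortical and oligodendrocyte markers as covariates, 802 genes had an unadjusted p under 0.05.

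**Figure D2:**
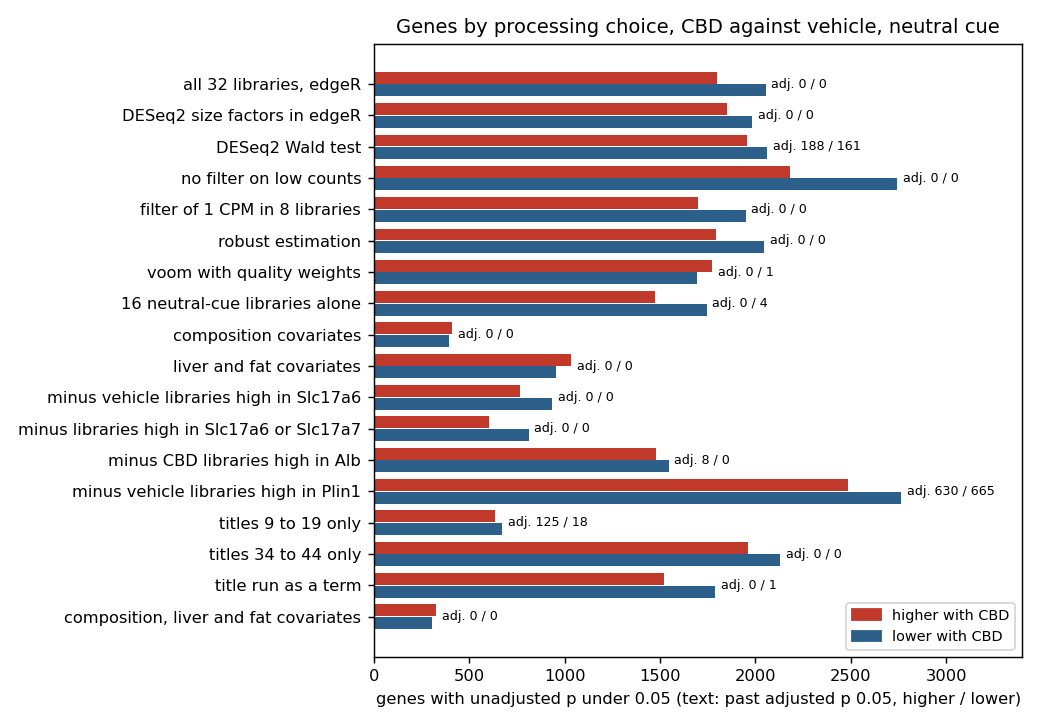
Number of genes with an unadjusted p under 0.05 in CBD against vehicle, neutral cue (horizontal axis), for each way of fitting or choosing libraries (rows); red bars are genes higher and blue bars genes lower with CBD, and the printed numbers are genes past an adjusted p of 0.05. The count was 3852 in the fit of all libraries and 802 with marker covariates.

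The gene with the smallest p was Mfng, which encodes the Manic fringe glycosyltransferase that modifies Notch receptors. It had 2.33 to 4.44 CPM (median 3.11) in CBD libraries and 4.77 to 11.3 CPM (median 7.30) in vehicle libraries, with no overlap. Its log2 fold change was -1.16 (SE 0.220, adjusted p 0.0697 by edgeR's quasi-likelihood test). Limma-voom with quality weights, which weights down libraries that vary more, put Mfng alone past the adjusted threshold. The difference was -1.26 within titles 34 to 44 and -1.09 within titles 9 to 19, and -0.65 with the marker covariates. Each run of titles holds high-Slc17a6 vehicle libraries, and these libraries 4, 7 and 8 had the highest Mfng, at 11.3, 8.44 and 8.88 CPM. The difference was -0.90 without them, and -0.40 with liver and fat covariates added to the marker covariates.

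A pair of tetraspanins, membrane proteins of endosomes and released vesicles, stood beside it. Cd9, also a myelin tetraspanin, had 27.3 to 39.9 CPM (median 33.9) in CBD libraries and 42.3 to 50.3 CPM (median 47.8) in vehicle libraries, so that every CBD library was below every vehicle library. Its log2 fold change was -0.49 (SE 0.115). Cd63, a late endosome and lysosome tetraspanin, had 51.7 to 77.6 CPM (median 56.3) in CBD libraries and 71.8 to 97.7 CPM (median 87.8) in vehicle libraries. CBD library 7 alone reached the vehicle range, and the log2 fold change was -0.57 (SE 0.130). Both genes had an adjusted p of 0.0697 in all libraries and passed the threshold, with Mfng and Metrnl, when the 16 neutral-cue libraries were fitted alone. With the marker covariates Cd9 moved to -0.25.

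Metrnl, a secreted meteorin-like factor, had 2.81 to 4.29 CPM (median 3.43) in CBD libraries and 4.26 to 8.58 CPM (median 7.51) in vehicle libraries, a log2 fold change of -0.96 (SE 0.220). CBD libraries 1 and 4 lay just above the lowest vehicle library, and the other CBD libraries lay below all vehicle libraries. Orai1, the pore subunit of store-operated calcium channels, had 4.83 to 6.75 CPM (median 5.65) in CBD libraries and 6.47 to 11.1 CPM (median 7.89) in vehicle libraries, a log2 fold change of -0.53. Slc1a5, a neutral amino acid transporter, had 2.44 to 4.35 CPM (median 3.02) in CBD libraries and 3.17 to 16.6 CPM (median 9.39) in vehicle libraries, a log2 fold change of -1.54. The groups overlapped for both. The high Slc1a5 values were those of vehicle libraries 1 to 5, the libraries with fat genes, and its log2 fold change was -0.40 without them, -0.40 among titles 34 to 44 and -0.45 with liver and fat covariates. On the higher side, Clip4, a protein of the microtubule-binding CAP-Gly family, had 22.7 to 27.99 CPM (median 25.9) in CBD libraries and 18.6 to 24.0 CPM (median 20.4) in vehicle libraries. Its log2 fold change was 0.31 (SE 0.0677), with slight overlap.

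In only 5 genes (0.0293% of those tested) did every CBD library exceed every vehicle library, and in 13 (0.0762%) did every CBD library lie below. The genes above were Hsd17b13, Onecut2, Slc35d1, Zfp407 and a gene known only by a locus number. Slc35d1, a nucleotide sugar transporter, had 21.5 to 23.8 CPM (median 22.2) in CBD libraries and 14.1 to 21.3 CPM (median 19.5) in vehicle libraries, a log2 fold change of 0.27. Zfp407, a zinc finger gene, had 22.3 to 25.7 CPM (median 23.9) in CBD libraries and 17.3 to 22.2 CPM (median 19.1) in vehicle libraries, a log2 fold change of 0.29. Onecut2, a homeodomain transcription factor, was low throughout, at 1.12 to 2.79 CPM in CBD libraries and 0.168 to 1.08 CPM in vehicle libraries. The genes below were Mfng, Cd9, the tetraspanin Cd82, the lysosomal proteases Ctsb, Ctsd and Ctsf, the oligodendrocyte genes Olig2, Cldn11 and Tmem125, and Ccdc61, Erg, Rassf3 and Vps26c. Vps26c is a subunit of the retriever complex, which returns membrane proteins from endosomes to the cell surface, and had 21.5 to 24.7 CPM (median 22.8) in CBD libraries and 25.4 to 28.1 CPM (median 26.7) in vehicle libraries. The log2 fold changes of these 4 last genes were -0.41, -0.41, -0.26 and -0.21.

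**Figure D3:**
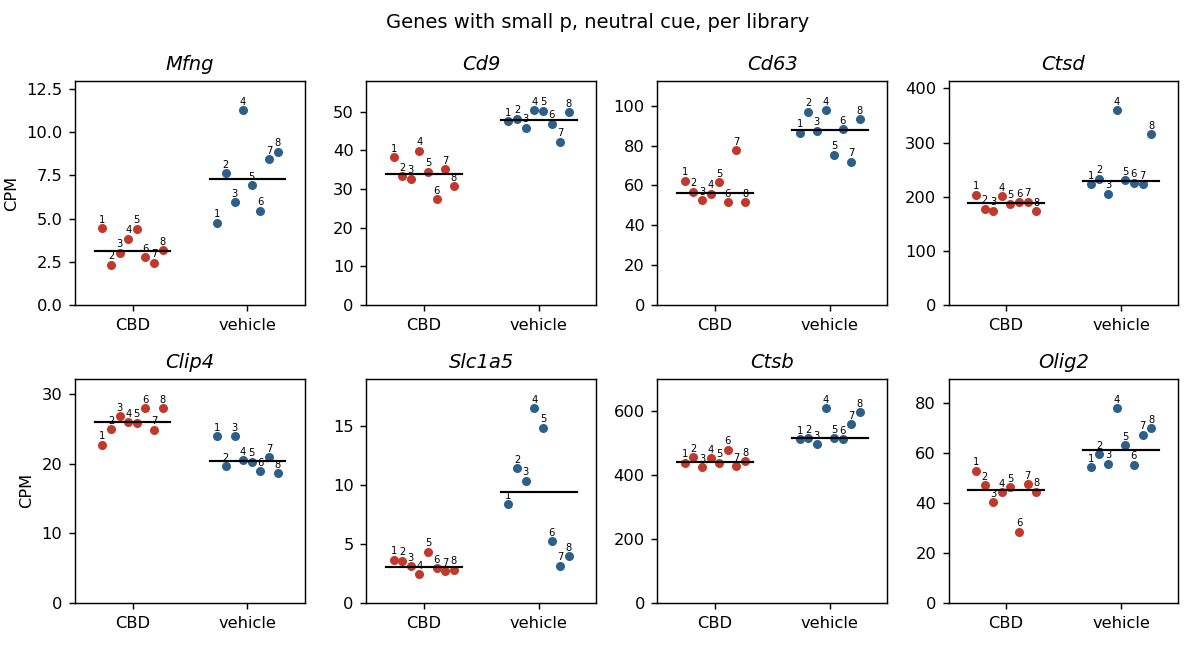
CPM (vertical axes) of Mfng, Cd9, Cd63, Ctsd, Clip4, Slc1a5, Ctsb and Olig2 in each neutral-cue library, CBD on the left and vehicle on the right; points carry the library number and the black line is the group median. Mfng, Cd9, Ctsd, Ctsb and Olig2 show no overlap between the groups, and Cd63 overlaps through CBD library 7 at 77.6 CPM.

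Lysosomal genes lay lower with CBD as a group. The list of 55 was written after the cathepsins had been seen among the genes without overlap, so its counts are a description. Of the 55 genes, 51 had a log2 fold change below 0, and the median was -0.20, against 0.00548 over all genes. There were 28 with an unadjusted p under 0.05 on the lower side, where 12% of all genes lay, and 0 on the higher side. With the anxiety cue the list's median was 0.02. With the neutral cue it was -0.17 among titles 9 to 19, -0.21 among titles 34 to 44 and -0.15 without vehicle libraries 4, 7 and 8. It was -0.08 with the marker covariates, where 8 members had an unadjusted p under 0.05 on the lower side. In that fit 393 of all 17002 genes were on the lower side. With liver and fat covariates added to the marker covariates the list's median was -0.04, and 1 member had an unadjusted p under 0.05 on the lower side. In this second fit 305 of all 16972 genes were on the lower side.

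Many lysosomal genes are known to share a promoter element, the CLEAR motif, which the transcription factor TFEB binds. Its core was searched here as GTCACGTG on either strand, which reads CACGTGAC on the other, in RefSeq promoters of the GRCr8 rat genome (250 bases before to 50 after each start). It was found in 554 of 27457 promoters (2.02%), in 434 of 12542 promoters of tested genes (3.46%), and in 9 of the 43 lysosomal genes that had a promoter sequence (20.9%). Stretches of 60 bases from 4 of the 9 are given, to show members with the same letters and unlike fold changes in the fit of all libraries. Each runs 5′ to 3′ along the gene's strand, with the motif in capitals. They lie on the minus strand at chr1:206968945-206969004 (Ctsd) and chr16:83075197-83075256 (Lamp1), and on the plus strand at chr8:122963590-122963649 (Glb1) and chr12:6358198-6358257 (Mcoln1).
Ctsd: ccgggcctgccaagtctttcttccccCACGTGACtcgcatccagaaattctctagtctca
Lamp1: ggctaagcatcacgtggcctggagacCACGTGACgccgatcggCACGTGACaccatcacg
Glb1: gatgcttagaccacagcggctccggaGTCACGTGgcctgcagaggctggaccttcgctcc
Mcoln1: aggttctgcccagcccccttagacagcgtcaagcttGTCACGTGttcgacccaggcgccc
A match is a string of letters, and binding was not measured.

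Ctsd, the aspartic protease cathepsin D, had 173.7 to 203.5 CPM (median 188.8) in CBD libraries and 205.9 to 359.5 CPM (median 228.2) in vehicle libraries, a log2 fold change of -0.43 (SE 0.119). Ctsb, the cysteine protease cathepsin B, had 425.2 to 480.1 CPM (median 441.6) in CBD libraries and 497.5 to 610.7 CPM (median 516.0) in vehicle libraries, a log2 fold change of -0.28 (SE 0.0760). Ctsf, cathepsin F, had 60.8 to 72.1 CPM (median 69.1) in CBD libraries and 72.9 to 105.0 CPM (median 74.9) in vehicle libraries. None of the 3 overlapped between groups, with edgeR adjusted p-values of 0.0863 for Ctsd, 0.0853 for Ctsb and 0.109 for Ctsf. With the marker covariates their log2 fold changes were -0.15 for Ctsd, -0.13 for Ctsb and -0.12 for Ctsf. Lamp1, a main glycoprotein of the lysosomal membrane, had 177.0 to 211.7 CPM (median 188.0) in CBD libraries and 189.1 to 226.4 CPM (median 211.9) in vehicle libraries, with wide overlap. Its log2 fold change was -0.15, that of the galactosidase gene Glb1 was -0.50, and that of Mcoln1, a lysosomal calcium channel, was -0.08. The highest Glb1 values were those of vehicle libraries 4, 7 and 8, at 16.9, 14.2 and 14.9 CPM. Without these libraries the log2 fold changes were -0.21 for Glb1, -0.16 for Lamp1 and -0.04 for Mcoln1. With the marker covariates they were -0.05 for Glb1, -0.12 for Lamp1 and -0.00126 for Mcoln1. Tcirg1, a subunit of the proton pump that acidifies lysosomes, had 6.78 to 13.7 CPM (median 12.5) in CBD libraries and 8.84 to 25.97 CPM (median 20.5) in vehicle libraries, a log2 fold change of -0.79. Ppt1, the palmitoyl thioesterase, and Npc2, a cholesterol carrier of the lysosome, had log2 fold changes of -0.30 and -0.29.

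Many of the large fold changes belonged to genes of liver, fat and connective tissue. Of the 16 hepatocyte genes tested, 12 had an unadjusted p under 0.05 on the higher side, where 10.5% of all genes lay. The list's median log2 fold change was 3.20. A further 6 listed genes were too low to test (Ahsg, Ambp, Apoa2, Apoc3, Cyp3a2 and Mup4), and 3 listed genes had 0 counts in all 16 libraries. The list's summed level was 52.1 to 1627 CPM (median 238.4) in CBD libraries and 48.4 to 94.1 CPM (median 73.1) in vehicle libraries. Alb had 1.28 to 227.0 CPM (median 29.3) in CBD libraries and 2.02 to 9.66 CPM (median 3.03) in vehicle libraries, a log2 fold change of 3.94 (SE 0.972). Hpx, the heme carrier hemopexin, had 0.550 to 321.2 CPM (median 32.5) in CBD libraries and 1.08 to 4.43 CPM (median 1.71) in vehicle libraries, a log2 fold change of 5.29. The high values were those of CBD libraries 1 to 4, and among titles 34 to 44 the log2 fold changes were -0.31 for Alb and -0.94 for Hpx. The liver gene Slc25a47, a mitochondrial carrier, went with them at 4.66 in all libraries, against -0.31 without CBD libraries 1 to 4. Hsd17b13, a lipid droplet enzyme, had 1.23 to 11.4 CPM (median 2.53) in CBD libraries and 0.385 to 1.203 CPM (median 0.956) in vehicle libraries, with no overlap.

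Fat and matrix genes lay the other way. Among 14 adipocyte genes tested, 9 had an unadjusted p under 0.05 on the lower side, where 12% of all genes lay. The median of the 14 genes was -1.40. Their summed level was 152.9 to 268.3 CPM (median 184.7) in CBD libraries and 115.2 to 424.4 CPM (median 324.1) in vehicle libraries. Plin1 had a log2 fold change of -4.65 (SE 1.04), Sncg, gamma-synuclein, which fat and sensory neurons express, of -3.17, and the amine oxidase gene Aoc3 of -2.42. Without vehicle libraries 1 to 5 these were -0.56, -2.22 and 0.08. The -2.22 of Sncg then rested on vehicle library 8, at 10.2 CPM, against 0.869 and 0.668 CPM in vehicle libraries 6 and 7. Of 18 meningeal and matrix genes tested, 9 had an unadjusted p under 0.05 on the lower side and 2 on the higher side. These sides held 12% and 10.5% of all genes. The median of the 18 genes was -0.60. Their summed level was 126.5 to 296.0 CPM (median 162.4) in CBD libraries and 105.6 to 361.6 CPM (median 198.1) in vehicle libraries. Vim, the intermediate filament vimentin, had 17.1 to 27.5 CPM (median 18.2) in CBD libraries and 15.6 to 106.5 CPM (median 44.7) in vehicle libraries, a log2 fold change of -1.48. Vehicle libraries 1 to 5 held the high values, and without them the Vim difference was 0.01 and that of the collagen gene Col3a1 was 0.68 against -2.39 in all libraries. With the mean levels of the hepatocyte and adipocyte lists as covariates, 1989 genes over the whole table had an unadjusted p under 0.05.

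Oligodendrocyte genes were lower with CBD in nearly the whole list. Of 20 oligodendrocyte and myelin markers tested, 19 had an unadjusted p under 0.05 on the lower side, where 12% of all genes lay. The list's median log2 fold change was -0.39. The summed level was 4446 to 9194 CPM (median 7891) in CBD libraries and 8579 to 12740 CPM (median 9891) in vehicle libraries. Olig2, the lineage transcription factor, had 28.6 to 53.1 CPM (median 45.5) in CBD libraries and 54.4 to 78.1 CPM (median 61.4) in vehicle libraries, with no overlap, a log2 fold change of -0.52 (SE 0.130) and an edgeR adjusted p of 0.0697. Mbp, myelin basic protein, had 1472 to 3351 CPM (median 2706) in CBD libraries and 3214 to 4716 CPM (median 3569) in vehicle libraries, a log2 fold change of -0.49. Cldn11, the claudin of myelin, had 122.9 to 241.3 CPM (median 229.2) in CBD libraries and 249.8 to 331.1 CPM (median 274.7) in vehicle libraries. The lowest value of each was that of CBD library 6, the library with high Slc17a7. The marker covariates include the mean level of this list, so they take out differences that oligodendrocyte genes share. With them Olig2 was at -0.18. The list's median was -0.23 without vehicle libraries 4, 7 and 8, -0.22 among titles 9 to 19 and -0.59 among titles 34 to 44. With the anxiety cue it was -0.14.

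Precursor and other glial lists lay lower too. Of 13 oligodendrocyte precursor markers, 8 had an unadjusted p under 0.05 on the lower side and 1 on the higher side, with a median of -0.36. For all genes these shares were 12% and 10.5%. The microglial list of 22 had 7 on the lower side and 0 on the higher side, with a median of -0.21. C1qa, a complement component, had 26.8 to 43.8 CPM (median 36.1) in CBD libraries and 38.4 to 63.5 CPM (median 44.2) in vehicle libraries, a log2 fold change of -0.37. The astrocyte list of 22 had 8 on the lower side and 1 on the higher side, with a median of -0.17. Gfap, the astrocyte filament protein, had 34.5 to 69.3 CPM (median 45.1) in CBD libraries and 57.3 to 148.7 CPM (median 75.3) in vehicle libraries, a log2 fold change of -0.79. Vehicle libraries 4 and 8, of the high-Slc17a6 set, held the highest Gfap, at 107.6 and 148.7 CPM, and its log2 fold change was -0.46 without libraries 4, 7 and 8 and -0.40 with the marker covariates. The 25 endothelial markers stood near all genes, with a median of -0.04 and 1 gene on the higher side. Choroid plexus markers were low, with a summed level of 18.0 to 38.9 CPM in CBD libraries and 21.4 to 34.7 CPM in vehicle libraries.

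Medium spiny neuron markers were detected in all libraries and lay mostly above 0. Of 35 tested, 33 had a log2 fold change above 0, 5 had an unadjusted p under 0.05 on the higher side, against 10.5% of all genes, and the median was 0.50. Drd1 had 278.2 to 393.7 CPM (median 337.9) in CBD libraries and 56.6 to 361.8 CPM (median 258.0) in vehicle libraries. Drd2, the dopamine D2 receptor, had 146.3 to 214.8 CPM (median 165.8) in CBD libraries and 41.3 to 195.5 CPM (median 148.0) in vehicle libraries. Of the vehicle libraries, 5 lay below the lowest CBD library for Drd1 and 4 for Drd2, and the rest overlapped with the CBD libraries. The log2 fold changes were 0.57 (SE 0.291, edgeR adjusted p 0.241) for Drd1, 0.50 for Drd2, 0.27 for Penk, the enkephalin precursor, and 0.50 for Tac1, the substance P precursor. Without vehicle libraries 4, 7 and 8 the list's median was 0.09, and with the marker covariates it was -0.03. Bcl11b, a transcription factor of these neurons, had 225.3 to 312.9 CPM (median 270.6) in CBD libraries and 88.9 to 265.0 CPM (median 196.4) in vehicle libraries, a log2 fold change of 0.51.

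Markers of neighbouring neurons lay lower. Of 22 septal, pallidal and diencephalic markers tested, 13 had an unadjusted p under 0.05 on the lower side and 1 on the higher side. These sides held 12% and 10.5% of all genes. The median of the 22 markers was -0.87. Their summed level was 198.7 to 413.3 CPM (median 336.8) in CBD libraries and 286.1 to 712.4 CPM (median 424.5) in vehicle libraries. The 14 cholinergic markers had 10 on the lower side and 0 on the higher side, with a median of -0.80, and a summed level of 268.2 to 422.7 CPM in CBD libraries and 317.6 to 1210 CPM in vehicle libraries. Ngfr, the p75 neurotrophin receptor of basal forebrain cholinergic neurons, had 0.244 to 3.74 CPM (median 1.21) in CBD libraries and 0.371 to 109.6 CPM (median 2.57) in vehicle libraries. Its log2 fold change of -4.13 came with 109.6 CPM in vehicle library 4 and 79.2 CPM in vehicle library 8. Lhx8, a transcription factor of forebrain cholinergic neurons, had 6.45 to 25.3 CPM (median 15.0) in CBD libraries and 17.3 to 95.6 CPM (median 28.8) in vehicle libraries, a log2 fold change of -1.42. Without vehicle libraries 4, 7 and 8 the log2 fold changes were -0.11 for Ngfr and -0.59 for Lhx8, and the medians were -0.22 for the septal list and -0.23 for the cholinergic list. The 15 cortical markers tested had a median of 0.50, with Slc17a7 at 4.49 in all libraries and at 1.06 without CBD library 6. Their summed level was 680.4 to 2747 CPM in CBD libraries and 365.4 to 784.0 CPM in vehicle libraries.

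The endocannabinoid genes showed no shared direction. Of 14 receptors and enzymes tested, 5 lay above 0, 3 had an unadjusted p under 0.05 on the higher side and 4 on the lower side, and the median was -0.03. Of all genes 10.5% were on the higher and 12% on the lower side. Cnr1, the cannabinoid CB1 receptor, had 41.8 to 283.7 CPM (median 56.8) in CBD libraries and 39.2 to 245.1 CPM (median 72.3) in vehicle libraries, a log2 fold change of -0.22 (SE 0.367, edgeR adjusted p 0.743). The groups covered the same range, and the sign rested on single libraries, with -0.84 without CBD library 6 and 0.15 without vehicle library 4. Faah, the hydrolase that breaks down anandamide, had 36.6 to 61.0 CPM (median 43.9) in CBD libraries and 30.3 to 46.1 CPM (median 43.2) in vehicle libraries, a log2 fold change of 0.09 (SE 0.0825). Mgll, the lipase that breaks down 2-arachidonoylglycerol, had 193.8 to 287.0 CPM (median 229.4) in CBD libraries and 110.0 to 257.9 CPM (median 182.8) in vehicle libraries, a log2 fold change of 0.34. Its values overlapped across most of their range. Abhd4, a hydrolase on a route of anandamide synthesis, had 47.8 to 65.1 CPM (median 53.9) in CBD libraries and 52.5 to 76.2 CPM (median 66.9) in vehicle libraries, a log2 fold change of -0.27 (SE 0.0760, edgeR adjusted p 0.0863). Naaa, the acid amidase that cleaves N-acylethanolamines in the lysosome, had a log2 fold change of -0.26. With the marker covariates Abhd4 and Naaa were both at -0.14.

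Genes of other proteins that CBD has been reported to act on lay more often below 0. Of 21 tested, 7 lay above 0, 1 had an unadjusted p under 0.05 on the higher side and 5 on the lower side, and the median was -0.14. For all genes these shares were 10.5% on the higher and 12% on the lower side. Fabp5, a fatty acid carrier that brings anandamide to its hydrolase, had 11.1 to 19.3 CPM (median 12.9) in CBD libraries and 13.3 to 32.3 CPM (median 17.5) in vehicle libraries, a log2 fold change of -0.52, and of -0.23 with the marker covariates. Htr1a, the serotonin 1A receptor, had 0.428 to 4.30 CPM (median 1.22) in CBD libraries and 1.27 to 11.1 CPM (median 2.79) in vehicle libraries, a log2 fold change of -1.45. The highest Htr1a values were those of vehicle libraries 4, 7 and 8, and its log2 fold change was -0.46 without them and -0.44 with the marker covariates. Trpv1 had 3.59 to 7.77 CPM (median 5.46) in CBD libraries and 2.66 to 6.16 CPM (median 4.08) in vehicle libraries, a log2 fold change of 0.36. All 3 genes overlapped between groups. Pparg, also a regulator of fat cell genes, had 0.244 to 3.97 CPM (median 0.596) in CBD libraries and 0.307 to 9.35 CPM (median 3.92) in vehicle libraries. Its log2 fold change was -1.95 in all libraries and 0.91 without vehicle libraries 1 to 5, those with high Plin1.

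Receptor and synaptic lists were mixed. The 20 dopamine, serotonin and opioid receptor genes had a median of 0.22, with 4 at an unadjusted p under 0.05 on the higher side and 2 on the lower side. The 29 GABA-A and ionotropic glutamate receptor subunits had a median of 0.20, with 10 on the higher side and 7 on the lower side. Grin2b, the NMDA receptor subunit GluN2B, had 359.0 to 523.4 CPM (median 402.7) in CBD libraries and 160.5 to 402.6 CPM (median 304.7) in vehicle libraries, a log2 fold change of 0.49 (SE 0.153). The CBD median was just above the highest vehicle library. The Grin2b difference was 0.28 without vehicle libraries 4, 7 and 8 and 0.12 with the marker covariates. The 32 synaptic vesicle genes had a median of 0.04, with 8 on the higher side and 5 on the lower side. Bsn, the presynaptic scaffold bassoon, had a log2 fold change of 0.42, and of 0.14 with the marker covariates. The 29 neuropeptide genes had a median of 0.07 with 3 on the higher side and 5 on the lower side, and the 23 interneuron markers had a median of -0.24 with 1 and 9. The counts in these lists stand beside 10.5% of all genes on the higher and 12% on the lower side.

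Immediate early genes, which neurons induce within minutes of strong activity, lay above 0 in 26 of 35 cases. There were 10 at an unadjusted p under 0.05 on the higher side and 0 on the lower side, and the median was 0.47. The shares of all genes on these sides were 10.5% and 12%. Fos had 8.17 to 37.0 CPM (median 10.9) in CBD libraries and 10.3 to 24.2 CPM (median 12.9) in vehicle libraries, a log2 fold change of -0.05 (SE 0.278, edgeR adjusted p 0.928). Egr1, a zinc finger activity gene, had 66.2 to 182.5 CPM (median 80.8) in CBD libraries and 25.4 to 88.5 CPM (median 66.0) in vehicle libraries, a log2 fold change of 0.69 (SE 0.259). Arc, whose product regulates AMPA receptor trafficking, had 25.8 to 153.7 CPM (median 45.2) in CBD libraries and 12.6 to 70.2 CPM (median 42.3) in vehicle libraries, a log2 fold change of 0.80 (SE 0.402). CBD library 6 gave the highest value of all 3 genes, and vehicle libraries 4, 7 and 8 the lowest Egr1 and Arc. The list's median was 0.09 without CBD library 6, 0.21 without those 3 vehicle libraries and 0.01 without all 4. With the marker covariates the log2 fold changes were 0.01 for Egr1 and -0.17 for Arc. The median of the immediate early list was -0.08 among titles 9 to 19 and 0.83 among titles 34 to 44.

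Clock genes lay above 0 in 18 of 19 cases, with 10 at an unadjusted p under 0.05 on the higher side, 0 on the lower side and a median of 0.24. Of all genes 10.5% were on the higher side. Nr1d1, the clock repressor REV-ERB alpha, had 46.3 to 70.6 CPM (median 58.5) in CBD libraries and 31.4 to 52.7 CPM (median 46.3) in vehicle libraries, a log2 fold change of 0.36 (SE 0.103, edgeR adjusted p 0.0916). Cry2, a repressor of the same loop, had 133.6 to 185.1 CPM (median 151.6) in CBD libraries and 114.5 to 151.4 CPM (median 130.9) in vehicle libraries, a log2 fold change of 0.23. In both genes the CBD median exceeded the highest vehicle library. With the marker covariates the log2 fold changes were 0.18 for Nr1d1 and 0.05 for Cry2. Per1 and Per2, the period genes, had log2 fold changes of 0.37 and 0.36 with overlapping groups, and Per2 was at -0.05 among titles 9 to 19. The list's median was 0.15 without vehicle libraries 4, 7 and 8, 0.05 with the marker covariates and -0.02 with the anxiety cue. The hour at which brains were taken is not in the labels.

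**Figure D4:**
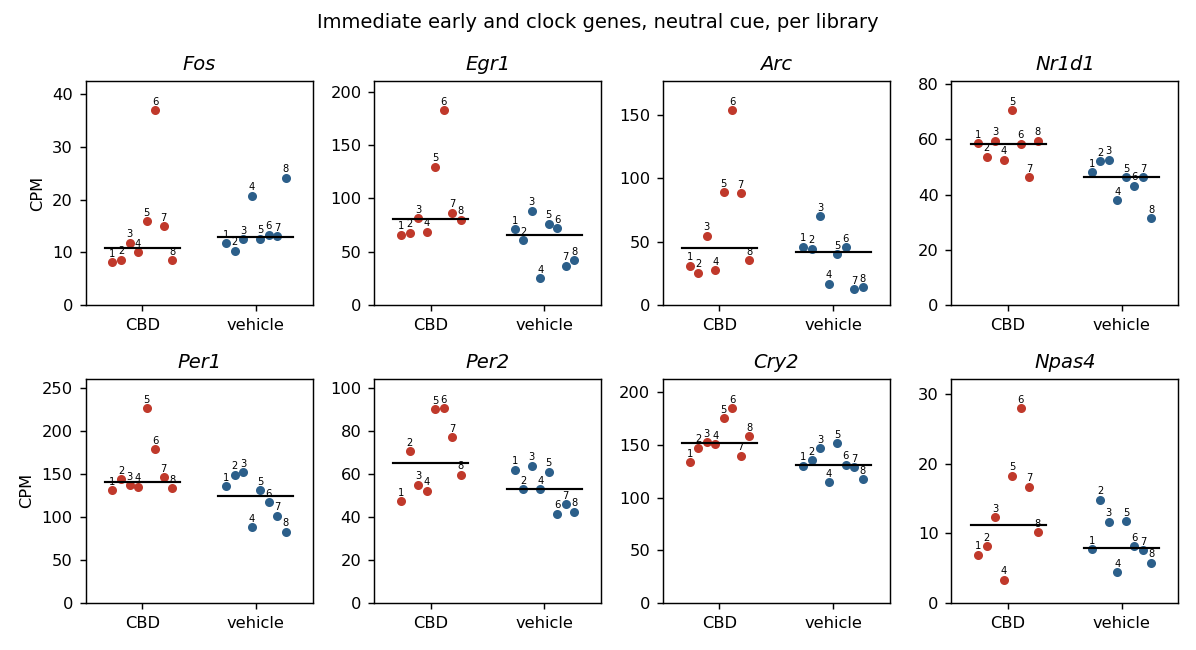
CPM (vertical axes) of 8 immediate early and clock genes in each neutral-cue library, CBD on the left and vehicle on the right; points carry the library number and the black line is the group median. CBD library 6 was highest for Fos (37.0 CPM), Egr1 (182.5 CPM) and Arc (153.7 CPM), and the CBD median of Nr1d1 (58.5 CPM) lay above all vehicle libraries.

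Nuclear genes of the respiratory chain lay slightly lower across nearly all members. Of 36 complex I genes, 35 lay below 0 and 12 had an unadjusted p under 0.05 on the lower side, with a median of -0.13. Of 42 genes of complexes II to V, 41 lay below 0 and 9 were on the lower side, with a median of -0.13. Over all genes 12% were on the lower side. Neither list had a gene on the higher side. Ndufa8, a complex I subunit, had 44.6 to 54.4 CPM (median 46.8) in CBD libraries and 46.3 to 82.5 CPM (median 56.3) in vehicle libraries, a log2 fold change of -0.35 (SE 0.106, edgeR adjusted p 0.105). Sdhc, a complex II subunit, had 91.9 to 115.0 CPM (median 103.8) in CBD libraries and 105.5 to 158.7 CPM (median 117.1) in vehicle libraries, a log2 fold change of -0.28. Cox4i1, a cytochrome c oxidase subunit, had 272.5 to 346.6 CPM (median 303.5) in CBD libraries and 286.5 to 454.4 CPM (median 343.5) in vehicle libraries, a log2 fold change of -0.18. The groups overlapped in all 3. The 24 tricarboxylic acid cycle genes had 6 on the lower side and a median of -0.10. The 34 genes of mitochondrial dynamics had 6 on the higher side, 5 on the lower side and a median of 0.00.

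Ribosomal protein genes lay lower as well. Of 74 cytosolic ribosomal protein genes, 73 lay below 0 and 10 had an unadjusted p under 0.05 on the lower side, with a median of -0.15. Of 73 mitochondrial ribosomal protein genes, 59 lay below 0 and 12 were on the lower side, with a median of -0.09. Mrps23, of the small mitochondrial subunit, had 23.2 to 28.1 CPM (median 24.0) in CBD libraries and 25.8 to 37.1 CPM (median 29.5) in vehicle libraries, a log2 fold change of -0.27 (SE 0.0675, edgeR adjusted p 0.0697). Vehicle library 6 stood apart here, with a summed cytosolic ribosomal level of 17810 CPM, against 9335 to 13010 CPM in the other 15. Without it the medians were -0.07 in both respiratory chain lists, -0.05 in the mitochondrial and -0.03 in the cytosolic ribosomal list. Without vehicle libraries 4, 7 and 8 they were -0.17 in both respiratory chain lists, -0.13 in the mitochondrial and -0.29 in the cytosolic ribosomal list. Set against the 12% of all genes on the lower side, the counts of 10 in 74 and 12 in 73 ribosomal genes are near the background.

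Lipid genes gave no single direction. The 28 beta-oxidation genes had a median of 0.01, with 1 at an unadjusted p under 0.05 on the higher side and 5 on the lower side. The 42 polyunsaturated fatty acid genes had a median of -0.11, with 1 and 11, and the 24 cholesterol synthesis genes a median of -0.14, with 1 and 5. Of all genes 10.5% were on the higher and 12% on the lower side. Scd2, a stearoyl-CoA desaturase strongly expressed in brain, had 2539 to 3324 CPM (median 2707) in CBD libraries and 2865 to 4207 CPM (median 3299) in vehicle libraries, a log2 fold change of -0.25. Fads3, of the fatty acid desaturase family, had a log2 fold change of -0.48 and Mvk, mevalonate kinase, of -0.27. Fads3 was at -0.21 without vehicle libraries 1 to 5 and at -0.15 with liver and fat covariates, and Mvk at -0.14 without vehicle library 4. The cholesterol list's median was -0.05 without vehicle library 4, which held the highest Mvk.

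Antioxidant and chaperone genes lay lower. Of 34 antioxidant genes, 12 had an unadjusted p under 0.05 on the lower side and 1 on the higher side, with a median of -0.14. The shares of all genes on these sides were 12% and 10.5%. Gpx3, a secreted glutathione peroxidase, had 7.70 to 16.1 CPM (median 10.7) in CBD libraries and 14.2 to 97.7 CPM (median 27.0) in vehicle libraries, a log2 fold change of -1.71 (SE 0.390, edgeR adjusted p 0.0697). It was -0.99 without vehicle libraries 4, 7 and 8 and -0.56 with the marker covariates. Txnip, an inhibitor of thioredoxin, had 20.6 to 32.9 CPM (median 31.1) in CBD libraries and 27.0 to 55.2 CPM (median 44.7) in vehicle libraries, a log2 fold change of -0.59. Of 33 chaperone genes, 10 were on the lower side and 0 on the higher side, with a median of -0.12. Cryab, a small heat shock protein that oligodendrocytes also express, had 14.2 to 30.8 CPM (median 24.3) in CBD libraries and 30.0 to 45.8 CPM (median 34.2) in vehicle libraries, a log2 fold change of -0.66. A single CBD library reached the vehicle range of Cryab. The 26 glucocorticoid receptor and target genes had 13 above 0 and 13 below, 4 on the higher side, 7 on the lower side and a median of -0.03. Tsc22d3, the glucocorticoid-induced leucine zipper, had 57.5 to 76.7 CPM (median 68.4) in CBD libraries and 62.5 to 113.1 CPM (median 85.1) in vehicle libraries, a log2 fold change of -0.37.

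Set against the anxiety cue, the neutral cue gave many more unadjusted calls. CBD against vehicle had 0 genes past the adjusted threshold with either cue by edgeR, and 270 genes (1.58%) at an unadjusted p under 0.05 with the anxiety cue, 128 (0.75%) higher and 142 (0.832%) lower, with 48.3% of genes above 0. The difference between the cues was tested as an interaction over all 32 libraries. No gene passed (smallest adjusted p 0.321), 2353 (13.8%) had an unadjusted p under 0.05, of which 1156 (6.78%) lay above 0 and 1197 (7.02%) below, and DESeq2 called 11. The count was 1274 without vehicle libraries 4, 7 and 8 and 713 with marker covariates. Anxiety-cue libraries also carried septal, liver and fat genes, in both drug groups. Slc17a6 was at 31.83 CPM in CBD library 2 and 45.73 CPM in vehicle library 5. Alb was at 34.06 to 106.6 CPM in CBD libraries 3 to 6, and at 33.15 and 80.57 CPM in vehicle libraries 1 and 4. Plin1 was at 15.45 and 5.945 CPM in CBD libraries 1 and 2. It was at 15.97 to 21.69 CPM in vehicle libraries 2, 3 and 5. Whether the counts differed through the cue or such libraries was not tested.

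Among the 11 were Mcub, Metrnl and the matrix gene Postn. Mcub, an inhibitory subunit of the mitochondrial calcium uniporter, had 0.325 to 1.201 CPM (median 0.586) in CBD libraries and 0.583 to 2.96 CPM (median 1.02) in vehicle libraries with the neutral cue. With the anxiety cue it had 0.403 to 1.68 CPM (median 1.32) in CBD libraries and 0.400 to 0.787 CPM (median 0.563) in vehicle libraries. The log2 fold changes were -1.20 with the neutral and 1.04 with the anxiety cue, with an interaction of -2.24 (SE 0.448). The highest neutral-cue vehicle values of Mcub were those of libraries 8, 4 and 2, at 2.96, 2.12 and 2.05 CPM. Its neutral-cue difference was -0.80 without vehicle libraries 4, 7 and 8 and -0.72 with the marker covariates. In the same order of cues, Metrnl had log2 fold changes of -0.96 and 0.38, with an interaction of -1.34 (SE 0.309). The neutral-cue Metrnl difference was -0.95 without vehicle libraries 4, 7 and 8 and -0.60 with the marker covariates. Its highest anxiety-cue value was that of CBD library 2, at 10.7 CPM. Capg, an actin-capping protein of macrophages, had log2 fold changes of -1.82 and 1.03, with an interaction of -2.84. Its high neutral-cue values were those of vehicle libraries 1 to 3, at 16.4 to 20.7 CPM, and its neutral-cue difference was -0.47 without vehicle libraries 1 to 5 and -0.42 among titles 34 to 44. Postn, periostin, had log2 fold changes of -2.11 and 1.91, with an interaction of -4.02, and its neutral-cue difference was 0.26 without vehicle libraries 1 to 5. The high anxiety-cue values of both genes were those of CBD libraries 1 and 2. These held 8.11 and 18.7 CPM of Capg and 2.10 and 10.7 CPM of Postn. The other anxiety-cue CBD libraries held at most 3.69 CPM of Capg and 0.762 CPM of Postn. The same libraries 1 and 2 had the highest Col3a1 with that cue, at 23.1 and 65.8 CPM.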

How the data were processed

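Per the labels, nucleus accumbens shell RNA was made into polyA-selected Illumina libraries. Per the submitters' processing notes, STAR, featureCounts and DESeq2 were used, with the builds mRatBN7.2 and Rnor_6.0 named without a role; versions and strand setting are not given in the sources used here. The authors deposited raw gene counts, 34322 genes by 32 libraries. Overlapping genes may share reads.

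Here 17059 genes passed edgeR's expression filter. All 32 libraries were fitted by group with edgeR 4.0.16 (R 4.3.3), TMM scaling and the quasi-likelihood test, with Benjamini-Hochberg adjustment over all genes. CPM are TMM-scaled. Standard errors were derived from the fold change and its F statistic. The biological coefficient of variation was 0.215. No replicate pair matched within sampling noise (chi-square per degree of freedom 6.35 to 103 over 56 pairs). Scripts were tested on simulated data. Alternatives used DESeq2 1.42.0, limma 3.58.1, other filters, covariates and subsets of libraries.

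Members and gene lists were chosen with earlier results of these data known. Named genes were the 10 with the smallest p in each direction, the 2 with the smallest p per list, preset genes, and those singled out after their values were seen (genes without overlap, DESeq2 interaction calls and the lysosomal, tetraspanin and Notch lists). Sequences are from RefSeq, GRCr8; 27234 of the symbols matched. The transthyretin gene and protein-coding mitochondrial-genome genes are not analysed here.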

Additional observations from a re-analysis of the deposited data

Results flagged for a closer look

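Of 210 groups of 8 libraries (105 genes in each of the CBD and vehicle groups), 19 held a library whose gap to its nearest neighbour was large against the group's range, by Dixon's criterion. Chance flags about 1 in 20 groups. CBD library 6, which held the high Slc17a7, gave 9 of them: Cnr1 at 284 CPM, Faah at 61.0 CPM, Fos at 36.9 CPM and Klf10 at 24.4 CPM were highest there, and Olig2 at 28.6 CPM, Mbp at 1470 CPM, Mal at 136 CPM, Cldn11 at 123 CPM and Tmem125 at 6.75 CPM were lowest there. In other CBD libraries, Cd63 was high in library 7 at 77.6 CPM, Col3a1 was high in library 3 at 14.5 CPM, Glb1 was low in library 3 at 4.90 CPM, and Capg was low in library 2 at 1.11 CPM. Vehicle library 4 was highest for Grifin at 11.7 CPM, Mvk at 48.6 CPM and Ccdc61 at 13.9 CPM. Vehicle library 6 was lowest for Faah at 30.3 CPM and Txnip at 27.0 CPM, and vehicle library 8 was highest for Krt8 at 0.726 CPM.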

How the results depend on the processing

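Depth and 8 libraries a group limit the precision. Leaving out any 1 of the 16 neutral-cue libraries gave 0 genes past the adjusted threshold for the neutral cue and for the interaction. Anxiety-cue libraries were not left out singly. No paired analysis was possible because the labels carry no replicate numbers. The alternatives that leave out chosen libraries, use 1 run of titles, add the title run or join both kinds of covariate were chosen after seeing the data. Where a value moved, the cause was not tested. Past the adjusted threshold, the neutral-cue count of 0 became 349 with DESeq2, 1 with voom, 4 with the 16 libraries alone, 8 without the CBD libraries high in Alb, 1295 without the vehicle libraries high in Plin1, 143 among titles 9 to 19 and 1 (Cd9) with the title run as a term; the interaction's became 11 with DESeq2. The unadjusted neutral-cue count of 3852 became 802 with the composition covariates (septal, cortical and oligodendrocyte marker levels), 1989 with liver and fat covariates, 630 with both, 1699 without the vehicle libraries high in Slc17a6, 1413 without CBD library 6 too and 1307 among titles 9 to 19. When single neutral-cue libraries were left out it was lowest without vehicle library 4, at 2398, and highest without vehicle library 3, at 4687. The unadjusted interaction count of 2353 became 713 with composition covariates, 3981 with voom and 673 with all covariates. It was 1274 without the vehicle libraries high in Slc17a6 and 1198 without CBD library 6 too. Without the vehicle libraries high in Plin1 it was 4178, and among titles 9 to 19 it was 1290. Over single neutral-cue libraries left out, the extremes were 1589 without vehicle library 4 and 3041 without vehicle library 3. The interaction was not estimable in the fit of 16 libraries alone or with the title run.

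Of 3433 log2 fold changes of the 105 printed genes under alternatives, 58 changed sign. With composition covariates these were Arc (-0.17), Drd1 (-0.0258), Drd2 (-0.0737), Mgll (-0.0849), Npas4 (-0.20), Penk (-0.30) and Tac1 (-0.16). With all covariates they were Bcl11b (-0.10), Cnr1 (0.00603), Drd1 (-0.17), Drd2 (-0.15), Fads3 (0.0718), Fos (0.13), Glb1 (0.031), Hlf (-0.0751), Mcoln1 (0.0585), Mgll (-0.10), Penk (-0.35) and Tac1 (-0.28), and with liver and fat covariates Cnr1 (0.0144) and Fos (0.17). Without the CBD libraries high in Alb they were Cnr1 (0.25), Fos (0.36), Hpx (-0.52) and Slc25a47 (-0.31). Without the vehicle libraries high in Slc17a6 they were Cnr1 (0.53), Fos (0.23) and Penk (-0.19), and without CBD library 6 too, Npas4 (-0.00793) and Penk (-0.14). Without the vehicle libraries high in Plin1 they were Aoc3 (0.081), Col3a1 (0.68), Postn (0.26), Pparg (0.91) and Vim (0.00627). Among titles 34 to 44 they were Alb (-0.31), Aoc3 (0.18), Cnr1 (0.15), Col3a1 (0.19), Cyp2a3 (-0.24), Fos (0.16), Hpx (-0.94), Krt8 (-0.0725) and Vim (0.16). Among titles 9 to 19 they were Arc (-0.32), Npas4 (-0.39), Penk (-0.0156), Per2 (-0.0524) and Slc17a7 (-1.53), and with voom Npas4 (-0.14) and Slc17a7 (-0.00713). Leaving out single libraries, Fos ran from -0.42 to 0.0853 and Cnr1 from -0.84 to 0.15. Of 1112 list medians under alternatives, 39 moved by more than the spread between libraries, in 17 lists.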

Other observations

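A list of 24 tetraspanins, written after Cd9, Cd63 and Cd82 had been seen among the leading genes, had 21 members below 0, 11 at an unadjusted p under 0.05 on the lower side, 0 on the higher side and a median log2 fold change of -0.24 with the neutral cue. Of all genes 12% were on the lower side and 10.5% on the higher side. The list's median was -0.06 with the marker covariates, -0.31 among titles 34 to 44 and 0.02 with the anxiety cue. Cd82 had 29.4 to 45.2 CPM (median 43.2) in CBD libraries and 45.4 to 58.3 CPM (median 49.5) in vehicle libraries, a log2 fold change of -0.30.

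The Notch pathway, whose receptors the Mfng product modifies, gave no such group. Of 24 Notch pathway genes listed after Mfng had been seen, 15 lay above 0, 3 had an unadjusted p under 0.05 on the higher side and 2 on the lower side, and the median log2 fold change was 0.03.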
